A study of Mus musculus with 6 samples.

Results

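The MAP kinase phosphatases are the catalytically active dual-specificity phosphatases that act on MAP kinases, and their genes are *Dusp1*, *Dusp2*, *Dusp4*, *Dusp5*, *Dusp6*, *Dusp7*, *Dusp8*, *Dusp9*, *Dusp10* and *Dusp16*. These 10 genes were taken by symbol from the 55357 genes counted in mouse primary neuronal cultures, and all 10 had enough reads to be tested among 21876 genes. The RNA-seq data comprised 6 libraries of poly(A) RNA from wild-type C57BL/6N cultures of cortical and hippocampal neurons, established from E18 embryos. A group of 3 libraries came from cultures transduced at DIV4 with lentivirus carrying a scrambled shRNA (shCtrl), and the other 3 from cultures given lentivirus with the sh2 shRNA against *Pla2g4e* (sh*Pla2g4e*), both collected at DIV14. Both groups therefore carried a lentivirus, in equal amount, and the knockdown rests on 1 shRNA sequence at a dose chosen for a partial loss of the transcript. The labels do not say whether the 3 libraries of a group came from separate cultures, so that p-values measure the spread between these libraries, which may be technical.

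A MAP kinase is switched on when its activation loop is phosphorylated on a threonine and a tyrosine, and a MAP kinase phosphatase removes both phosphates. The family falls into nuclear enzymes that are mostly induced by growth factors and activity (*Dusp1*, *Dusp2*, *Dusp4* and *Dusp5*), cytoplasmic enzymes that prefer ERK (*Dusp6*, *Dusp7* and *Dusp9*), and enzymes that prefer JNK and p38 (*Dusp8*, *Dusp10* and *Dusp16*). Several of the genes are transcribed in answer to the kinases that their products inactivate, which makes them a negative feedback on the pathway. In neurons, *Dusp1* is known as an immediate early gene.

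The regions of the family that bear on its regulation are shown first, because *Dusp1* was the member with the largest change relative to its error. The promoters of 8 of the 10 members were in the RefSeq table (GRCm38.p6), and those of *Dusp4* and *Dusp9* were not matched. In the window from 250 bases before to 50 after the start, the cAMP response element TGACGTCA, searched on both strands, occurred in the promoters of *Dusp1* and *Dusp8*, and in 1.79% of all 32851 promoters. It lay from −143 to −136 relative to the start of *Dusp1*, and from −107 to −100 and from −63 to −56 in *Dusp8*. The CArG box, the site of serum response factor, occurred only in *Dusp5* among the 8 (1.63% of all promoters), and the AP-1 motif TGANTCA (7.81%) and the EGR motif GCGTGGGCG (0.612%) in none of the 8. A match in these windows is a description of letters and not evidence that a factor binds. The 250 bases upstream of *Dusp1* (chr17:26508473-26508722, minus strand) and *Dusp8* (chr7:142095285-142095534, minus strand) are given 5′ to 3′ with the cAMP response elements in capitals.
*Dusp1*: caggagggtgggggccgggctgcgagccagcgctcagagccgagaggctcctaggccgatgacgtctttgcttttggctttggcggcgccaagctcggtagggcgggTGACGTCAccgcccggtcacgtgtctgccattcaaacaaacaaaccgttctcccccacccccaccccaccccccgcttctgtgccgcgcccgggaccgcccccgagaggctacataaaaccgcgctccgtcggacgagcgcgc
*Dusp8*: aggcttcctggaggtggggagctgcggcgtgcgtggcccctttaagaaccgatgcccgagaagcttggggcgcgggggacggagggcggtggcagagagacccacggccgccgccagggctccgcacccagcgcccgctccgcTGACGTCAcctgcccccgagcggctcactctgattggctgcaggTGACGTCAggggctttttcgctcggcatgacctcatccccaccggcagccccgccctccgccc

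The members also differ in whether their mRNA can pair with the seed of the sh2 guide, bases 2 to 8 of the strand that the shRNA leaves in the cell. The guide is printed below with its seed in capitals, and the seed pairs with GTGGCCA in an mRNA. In the longest coding transcript of each gene (GENCODE vM21, GRCm38), *Dusp7* was the 1 member of 10 that held GTGGCCA in its 3′ UTR, 5 members (*Dusp5*, *Dusp6*, *Dusp8*, *Dusp9* and *Dusp16*) held it in the coding sequence, and 4 (*Dusp1*, *Dusp2*, *Dusp4* and *Dusp10*) did not hold it. *Dusp9* held it in the 5′ UTR as well. Of all 15461 tested genes with a 3′ UTR, 11.9% held the site there. The windows of 29 bases around the site are given for *Dusp7* (chr9:106375565-106375593, plus strand) and for *Dusp16* (chr6:134718114-134718142, minus strand, coding sequence), as the members with opposite directions below. Whether either site is used was not tested.
sh2 guide: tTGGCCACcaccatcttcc
*Dusp7*: tataccagaggGTGGCCAgttttgcttta
*Dusp16*: tgcctacagctGTGGCCAgctgcccactt

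Values per gene are CPM, the reads of a gene relative to those of its library, scaled with edgeR's TMM factors, and a gene was called at an adjusted p below 0.01 in edgeR's quasi-likelihood test. The libraries held 17054717 to 23570180 counted reads. The level of *Pla2g4e* itself was 37.98, 35.1 and 35.4 CPM with shCtrl against 21.8, 14.1 and 18.7 CPM with sh*Pla2g4e*, so that target and labels go together (log2 fold change −0.99 with an SE of 0.13, adjusted p = 1.24e-04). Of the 21876 genes tested, 6.49% were called, with 876 (4.0%) lower and 543 (2.48%) higher in sh*Pla2g4e* cultures. With libraries scaled by size alone the split was 609 lower and 796 higher. Of all genes tested, 10908 had a log2 CPM that averaged 3 or more, against 7 of the 10 members. In the lists below, 36 of 40 cascade genes and 18 of 18 activity-regulated genes did. Genes with few reads are harder to call, so the shares over all genes are not matched to these lists in level. Leaving out a library changed the count of 1419 calls by more than 1.5 times in 4 cases, to 928 without shCtrl replicate 1, 695 without shCtrl replicate 2, and likewise to 854 for sh*Pla2g4e* replicate 1 and 931 for sh*Pla2g4e* replicate 2. Replicates that share a number deviated together and were treated as pairs, although the labels do not say what they share. With the replicate number as a block 15.5% of all genes were called (9.02% lower and 6.50% higher), and the blocked calls rest on this pairing.

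The 10 pan-neuronal markers were all present, and their summed level was 5079 to 5618 CPM in shCtrl and 4797 to 5247 CPM in sh*Pla2g4e* libraries, with 2 called lower and 2 called higher, where 4.0% of all genes were called lower and 2.48% higher. Glutamatergic markers summed to 2821 to 3274 against 2236 to 2489 CPM (2 of 8 called lower and 1 higher), and GABAergic markers to 1208 to 1314 against 1021 to 1165 CPM (3 of 10 lower and 2 higher). Astrocyte markers were also abundant, with 2913 to 3738 CPM against 1979 to 3172 CPM summed over 10 genes, of which 3 were called lower and none higher. Markers of the oligodendrocyte lineage summed to 572 to 648 and 588 to 724 CPM, and those of endothelial, mural and fibroblast cells to 50.4 to 89.3 and 55.6 to 104.9 CPM, with none called in either list. Microglial markers were near absent, at 6.09 to 12.3 and 3.51 to 7.43 CPM summed over 8 genes, with *Tmem119* and *Itgam* under 6 reads in every library. With the block, which called 9.02% of all genes lower and 6.50% higher, the calls were 3 lower and 3 higher for pan-neuronal, 4 and 2 for glutamatergic, 4 and 3 for GABAergic and 7 and 1 for astrocyte markers. They were 1 lower (*Olig2*) and none higher for the oligodendrocyte lineage, none lower and 2 higher (*Col1a1* and *Kdr*) for endothelial, mural and fibroblast cells, and none for microglia. The parts that these cells had in the levels of the phosphatase genes were not tested, and in bulk cultures fewer cells of a type and less RNA per cell cannot be told apart.

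*Dusp1* rose 2.12-fold and *Dusp16* 1.48-fold in sh*Pla2g4e* cultures, and these were the 2 of 10 members called, both higher, where 2.48% of all genes were called higher. Of the remaining 8, 7 had a higher mean and *Dusp7* a lower one, and the median log2 fold change of the 10 members was 0.46, against 0.03 over all genes tested. That median was 0.31 in limma after voom and 0.31 without sh*Pla2g4e* replicate 2. It was 0.36 with at least 10 reads in every library, which drops *Dusp9*, and 0.53 with library size alone, the highest. The libraries of the groups did not overlap for 4 members, *Dusp1*, *Dusp8* and *Dusp16* higher and *Dusp7* lower, against 30.0% of all genes (15.5% higher and 14.6% lower). With the replicate block 6 members were called, *Dusp1*, *Dusp2*, *Dusp8*, *Dusp10* and *Dusp16* higher and *Dusp7* lower, where the block called 6.50% of all genes higher and 9.02% lower. The count depended on the libraries, with *Dusp1* the 1 member called after leaving out any shCtrl library or sh*Pla2g4e* replicate 1 or 2, and 5 members called, all higher, without sh*Pla2g4e* replicate 3. Over all genes the fit without sh*Pla2g4e* replicate 3 called 681 higher and 932 lower, against 543 and 876 with all libraries.

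**Figure D1:**
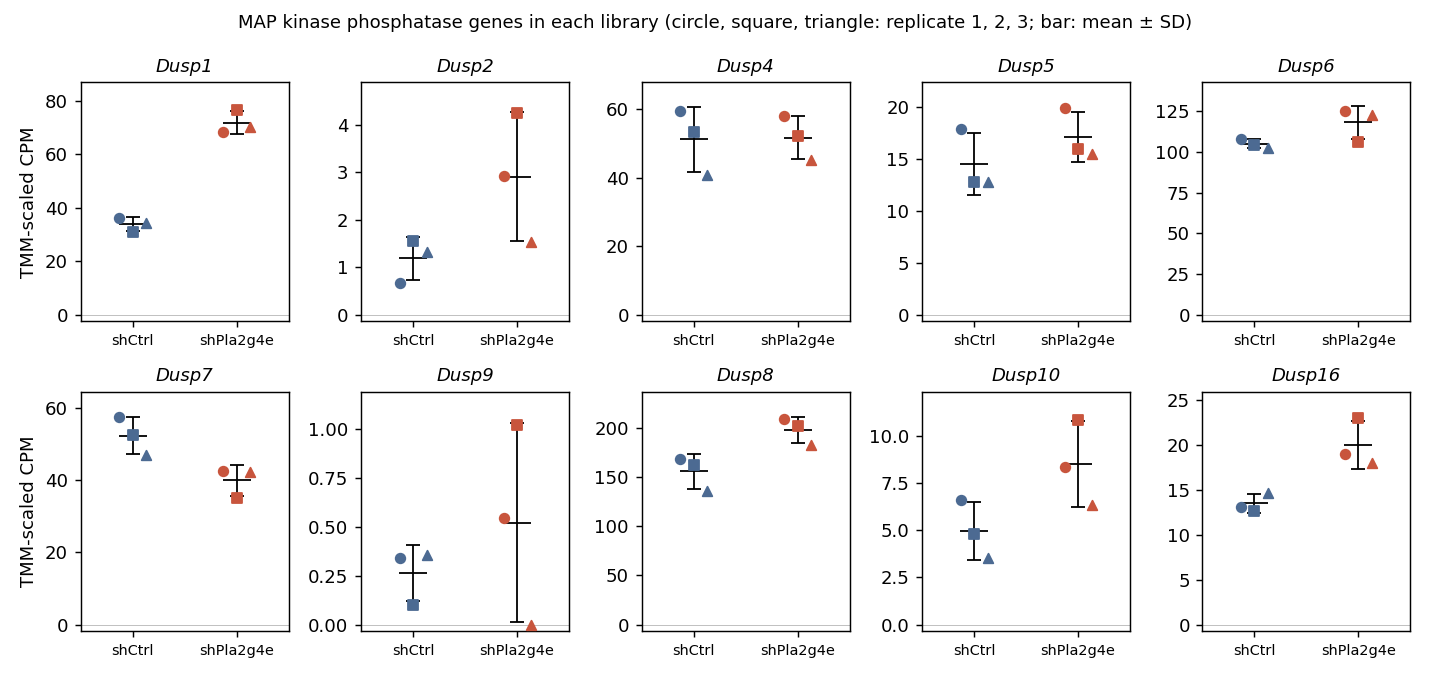
TMM-scaled CPM (vertical axes from 0, a scale for each gene) of the 10 MAP kinase phosphatase genes in the 3 shCtrl and 3 sh*Pla2g4e* libraries. Symbols mark the replicate number and bars the mean ± SD. The 3 sh*Pla2g4e* values of *Dusp1* lie between 68.3 and 76.6 CPM, above the shCtrl values of 31.0 to 36.2 CPM, while those of *Dusp4* overlap.

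Among the nuclear enzymes, *Dusp1* (GRCm39 chromosome 17, minus strand, bases 26724564 to 26781102), whose product inactivates JNK, p38 and ERK, stood at 36.2, 31.0 and 34.2 CPM with shCtrl (replicates 1, 2 and 3, here and for every gene) against 68.3, 76.6 and 70.2 CPM with sh*Pla2g4e*. Every sh*Pla2g4e* library stood well above every shCtrl library. Mean CPM was 33.8 ± 2.64 against 71.7 ± 4.35 (± SD, n = 3 each), a 2.12-fold difference, and the log2 fold change was 1.08 with an SE of 0.090 (adjusted p = 1.72e-06). It ranked 12th by p among the genes that were higher and 30th among all genes. Leaving out any 1 library gave log2 fold changes of 1.03 to 1.14, with an adjusted p of at most 5.42e-05. The 3 pairs of same-numbered libraries differed by 0.91, 1.31 and 1.04 on the log2 scale.

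*Dusp2*, a nuclear phosphatase first known from activated lymphocytes, was scarce. It had 14, 31 and 30 reads in the shCtrl libraries and 70, 92 and 27 reads in the sh*Pla2g4e* libraries, or 0.679, 1.56 and 1.33 CPM against 2.93, 4.25 and 1.54 CPM. The groups overlapped, because sh*Pla2g4e* replicate 3 lay at the level of shCtrl replicate 2. The log2 fold change was 1.30 with an SE of 0.38 (adjusted p = 0.0354), and it passed the threshold with the replicate block (1.25, adjusted p = 0.00171) and without sh*Pla2g4e* replicate 3 (1.59, adjusted p = 0.00363). With 14 to 92 reads in a library, the size of the difference is known only roughly.

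*Dusp4*, a nuclear phosphatase of ERK and JNK, had 59.5, 53.2 and 40.9 CPM with shCtrl against 57.8, 52.1 and 45.1 CPM with sh*Pla2g4e*. The values of the groups covered nearly the same range, and each library lay close to its same-numbered partner, with pair differences of −0.04, −0.03 and 0.14 on the log2 scale. The log2 fold change was 0.02 (SE 0.12, adjusted p = 0.954), and its sign changed without shCtrl replicate 3 (−0.12) and when sh*Pla2g4e* replicate 1 was left out (−0.07).

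*Dusp5*, a nuclear phosphatase directed at ERK, had 17.9, 12.8 and 12.8 CPM with shCtrl against 19.9, 15.95 and 15.5 CPM with sh*Pla2g4e*. The groups overlapped, although all 3 pairs were higher in sh*Pla2g4e*. The log2 fold change was 0.24 (SE 0.15, adjusted p = 0.349, and 0.123 with the block). It was 0.42 without shCtrl replicate 1, 0.16 without shCtrl replicate 2 or 3 and 0.12 without sh*Pla2g4e* replicate 1. Its level is uncertain, since AC137853.2, a gene of the opposite strand, covers 22.1% of its exon bases, and the counting did not use strand.

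Among the cytoplasmic ERK phosphatases, *Dusp6*, the feedback inhibitor that ERK signalling itself induces, had 108.0, 104.3 and 102.3 CPM with shCtrl against 125.0, 106.2 and 122.7 CPM with sh*Pla2g4e*. The lowest sh*Pla2g4e* library lay within the shCtrl range. The log2 fold change was 0.17 (SE 0.083, adjusted p = 0.214, and 0.0707 with the block), and *Dusp6* did not reach an adjusted p of 0.01 in any alternative run.

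*Dusp7*, the close relative of *Dusp6*, was the 1 member with a lower mean. It had 57.3, 52.5 and 47.02 CPM with shCtrl against 42.5, 34.95 and 42.2 CPM with sh*Pla2g4e*, and the highest sh*Pla2g4e* value lay below the lowest shCtrl value. Mean CPM was 52.3 ± 5.14 against 39.9 ± 4.28 (± SD, n = 3 each), and the log2 fold change was −0.39 (SE 0.10). It missed the threshold in the unblocked fit (adjusted p = 0.0182) and passed it with the replicate block (adjusted p = 1.97e-04) and in DESeq2 (0.00786). *Dusp7* is the member whose 3′ UTR holds the sh2 seed site printed above, as did 38.1% of the 843 genes called lower and 6.14% of the 472 called higher that have such a region. Over all tested genes with a 3′ UTR the share was 11.9%. The shares take no account of 3′ UTR length, and whether the site bears on *Dusp7* was not tested.

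*Dusp9*, best known from placenta, was barely detected. It had 7, 2 and 8 reads in the shCtrl libraries and 13, 22 and 0 reads in the sh*Pla2g4e* libraries. The absence of reads in sh*Pla2g4e* replicate 3 allows up to 0.171 CPM there, a limit that covers counting error only. The fitted log2 fold change of 0.98 had a standard error of 0.88 (adjusted p = 0.549), so that a change was not detectable in these libraries. The value was 0.10 without sh*Pla2g4e* replicate 2, 0.61 without shCtrl replicate 2, 1.52 without sh*Pla2g4e* replicate 3 and 0.17 in limma after voom.

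Among the JNK and p38 phosphatases, *Dusp8*, which is prominent in brain, had the most reads. It had 169.0, 162.5 and 136.0 CPM with shCtrl against 209.1, 202.2 and 182.7 CPM with sh*Pla2g4e*, without overlap. Mean CPM was 155.8 ± 17.4 against 198.0 ± 13.7 (± SD, n = 3 each), and all 3 pairs differed by a similar amount (0.31, 0.32 and 0.43 on the log2 scale). The log2 fold change of 0.35 (SE 0.092) missed the threshold in the unblocked fit (adjusted p = 0.0201) and passed it with the block (1.38e-05), in DESeq2 (0.00623), with scaling by library size alone (0.003) and without sh*Pla2g4e* replicate 3 (0.00924).

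*Dusp10*, which encodes a phosphatase of JNK and p38, had 6.60, 4.78 and 3.55 CPM with shCtrl against 8.37, 10.9 and 6.34 CPM with sh*Pla2g4e*. The groups overlapped only in that sh*Pla2g4e* replicate 3 fell just below shCtrl replicate 1. The log2 fold change was 0.78 (SE 0.23, adjusted p = 0.0364), and the call was made with the block (adjusted p = 2.26e-04) and without sh*Pla2g4e* replicate 3 (0.00594).

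*Dusp16* (GRCm39 chromosome 6, minus strand, bases 134692431 to 134769588), a JNK phosphatase that shuttles between nucleus and cytoplasm, had 13.1, 12.7 and 14.7 CPM with shCtrl against 18.9, 23.0 and 17.9 CPM with sh*Pla2g4e*. The groups did not overlap. Mean CPM was 13.5 ± 1.04 against 19.97 ± 2.69 (± SD, n = 3 each), a 1.48-fold difference, and the log2 fold change was 0.57 with an SE of 0.13 (adjusted p = 0.00765). The call needed all libraries but sh*Pla2g4e* replicate 3. The adjusted p was 0.0298 without shCtrl replicate 1, 0.0479 without shCtrl replicate 2 and 0.0109 without shCtrl replicate 3. It was 0.0181 when sh*Pla2g4e* replicate 1 was dropped and 0.0433 when sh*Pla2g4e* replicate 2 was. Over all 6 such fits, including that without sh*Pla2g4e* replicate 3 (adjusted p = 0.00286), the log2 fold change was 0.45 to 0.64. With the block the adjusted p was 9.59e-05.

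**Figure D2:**
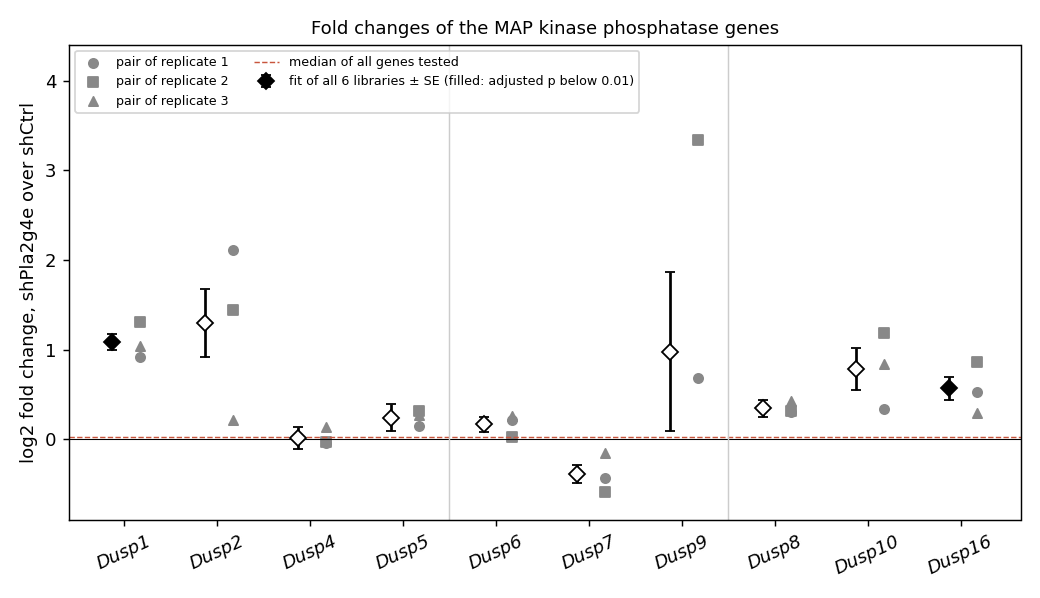
Log2 fold change of sh*Pla2g4e* over shCtrl for the 10 genes, with diamonds for the fit of all libraries ± standard error and grey symbols for the difference within each same-numbered pair. Vertical lines part nuclear, cytoplasmic and JNK- and p38-directed enzymes, the dashed line is the median of all genes tested (0.03), and *Dusp9* has 2 pairs because 1 library had no reads. The filled diamonds of *Dusp1* and *Dusp16* passed an adjusted p of 0.01, and *Dusp7* lies below 0 in all 3 pairs.

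Levels of different genes were compared as CPM per kilobase of all exons of a gene, as the files give their length. In shCtrl cultures *Dusp6* (33.5 ± 0.916, SD, n = 3) and *Dusp8* (32.0 ± 3.58) stood highest, and their libraries overlapped. *Dusp4* (18.7 ± 3.45) and *Dusp7* (15.6 ± 1.53) followed, also overlapping each other. *Dusp1* came next at 10.2 ± 0.798 CPM per kilobase and *Dusp5* at 5.87 ± 1.19, each apart from its neighbours on this length. *Dusp16* (1.73 ± 0.133) and *Dusp10* (1.64 ± 0.504) overlapped, and *Dusp2* (0.594 ± 0.228) and *Dusp9* (0.0974 ± 0.0524) were lowest. In sh*Pla2g4e* cultures *Dusp1* reached 21.7 ± 1.31 CPM per kilobase, above *Dusp7* (11.9 ± 1.27) in every library and overlapping *Dusp4* (18.9 ± 2.32). Summed over the 10 genes, the level was 108.9 to 130.4 CPM per kilobase in shCtrl and 138.4 to 152.1 in sh*Pla2g4e* libraries, and *Dusp1* made up 7.78% to 9.49% of it in the former and 13.6% to 16.1% in the latter. The order depended on the length used. For *Dusp1* the counted exons cover 3311 bases, and its longest coding transcript has 1990. With the longest coding transcript in place of all exons, a choice made after seeing the data, *Dusp1* stood at 16.997 ± 1.33 CPM per kilobase in shCtrl, between *Dusp4* (18.7 ± 3.45) and *Dusp7* (16.3 ± 1.6) and overlapping both, and *Dusp6* (37.5 ± 1.03) no longer overlapped *Dusp8* (32.4 ± 3.63). *Dusp16* then had 2.64 ± 0.203 and no longer overlapped *Dusp10* (1.78 ± 0.549). In sh*Pla2g4e* libraries *Dusp1* was at 36.04 ± 2.19, above *Dusp4* (18.9 ± 2.32) in every library, and its share of the sum was 11.7% to 14.1% in shCtrl and 19.8% to 23.1% in sh*Pla2g4e* libraries.

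**Figure D3:**
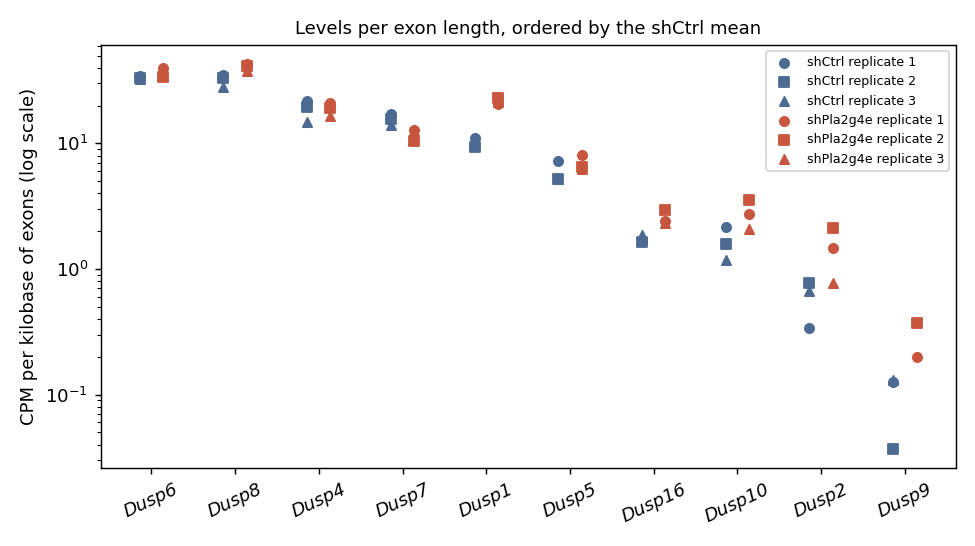
CPM per kilobase of exons (log axis) of the 10 genes in each library, ordered by the mean of the shCtrl libraries from *Dusp6* (33.5) to *Dusp9* (0.0974). The library of *Dusp9* without reads is not drawn, and *Dusp1* shows the widest gap between the groups relative to its spread.

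Over the 6 libraries, the 5 genes whose log2 CPM followed *Dusp1* most closely, among 10907 others whose log2 CPM averaged 3 or more, were *Peg10* (Pearson r = 0.995), *Bhlhe40* (0.994), *Zfp280b* (0.994), *Phlda1* (0.994) and *Slc25a53* (0.993). These are descriptions over 6 values that share the groups' difference, and 641 of the 10907 genes (5.88%) had an r above 0.9. Of the 5, *Slc25a53* was not called (log2 fold change 0.20, adjusted p = 0.177), and *Peg10*, *Bhlhe40* and *Zfp280b* rose by log2 fold changes of 1.25, 0.67 and 0.71.

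The atypical dual-specificity phosphatases, small relatives that lack the MAP kinase binding domain, had 14 genes tested of 17 in the files. Of these, 2 were called higher and 1 lower, where 6.49% of all genes were called, and the median log2 fold change was 0.16. *Dusp15* rose from 35.3 ± 3.35 to 66.0 ± 2.80 CPM (0.90 on the log2 scale, adjusted p = 9.24e-06) and *Dusp14* from 22.9 ± 4.45 to 38.4 ± 1.67 CPM (0.74, adjusted p = 6.98e-04). *Dusp18* fell from 38.8 ± 1.47 to 19.4 ± 1.98 CPM (−1.01 on the log2 scale, adjusted p = 1.10e-05). The sh2 seed site was in the 3′ UTR of 3 of the 14, *Dusp18*, *Dusp11* (−0.21, adjusted p = 0.112) and *Styx* (0.17, adjusted p = 0.528). The count was 2 higher and 1 lower in each fit that left out a library, and 3 higher and 1 lower with the block, which added *Dusp19* (0.60, adjusted p = 4.50e-04). Of 8 other phosphatases that act on MAP kinases, none was called (1, *Ptpn5*, lower with the block, which called 9.02% of all genes lower), and the median was −0.04. The smallest adjusted p was that of *Ptpn5*, the striatal-enriched tyrosine phosphatase of neurons, with 211.1 ± 10.6 and 169.2 ± 11.8 CPM (log2 fold change −0.32, adjusted p = 0.0158, and 9.03e-05 with the block), followed by *Ppp2cb* (−0.18, adjusted p = 0.135) and *Ppm1d* (0.25, adjusted p = 0.177).

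The kinases and scaffolds of the MAPK cascades include the MAP kinases that the phosphatases inactivate. Of 40 genes tested 7 were called lower and none higher, and the others did not pass, where 4.0% of all genes were called lower and 2.48% higher, and the median log2 fold change was −0.11. *Map3k5*, which encodes the stress-activated kinase ASK1 upstream of JNK and p38, fell from 62.2 ± 0.788 to 31.4 ± 8.03 CPM (−0.99 on the log2 scale, SE 0.14, adjusted p = 1.91e-04). *Mapk11*, a p38 gene, fell from 31.0 ± 3.08 to 18.7 ± 3.13 CPM (−0.73, SE 0.13), and *Mapk8ip2*, a scaffold of the JNK pathway, from 260.5 ± 19.6 to 190.0 ± 6.63 CPM (−0.46, SE 0.081). The other 4, named after their values were seen, were the JNK genes *Mapk8* (−0.46) and *Mapk10* (−0.36), the JNK scaffold *Mapk8ip3* (−0.33) and the atypical kinase *Mapk15* (−0.99). The sh2 seed site was in the 3′ UTR of 6 of the 40, *Mapk10* and *Mapk11*, which were called, and *Ksr1* (−0.40), *Ksr2* (−0.28), *Mapk13* (−0.54) and *Braf* (−0.03), which were not. The block also called *Ksr1* (adjusted p = 5.81e-05) and *Ksr2* (0.00268) lower. With the block 15 were called lower and 1 higher, against 9.02% and 6.50% of all genes. The count was 4 when shCtrl replicate 1 was left out, 3 when shCtrl replicate 2 was, 4 for sh*Pla2g4e* replicate 1, 4 for sh*Pla2g4e* replicate 2, and 4 with scaling by library size alone.

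Genes that ERK signalling induces, or that feed back on it as *Dusp6* does, mostly had log2 fold changes near 0. Of 16 tested (the Sprouty and Spred inhibitors, *Etv1*, *Etv4* and *Etv5* and others), 1 was called higher and none lower, against 6.49% of all genes called, and the median log2 fold change was 0.04. *Phlda1* rose from 16.7 ± 0.464 to 24.5 ± 0.754 CPM (0.55 on the log2 scale, adjusted p = 0.00214), a call that was lost when shCtrl replicate 2 or sh*Pla2g4e* replicate 1 was left out. *Ier3* (0.68, adjusted p = 0.0140) and *Il17rd* (−0.63, adjusted p = 0.0201) did not pass the threshold. Both passed with the block, in the same directions. The sh2 seed site was in the 3′ UTR of 3 of the 16, *Il17rd*, *Ccnd1* (0.09) and *Spred1* (−0.05).

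Activity-regulated genes are the class to which *Dusp1* belongs in neurons. Of 18 tested, 5 were called higher and none lower, where 2.48% of all genes were called higher, and the median was 0.29 on the log2 scale. *Ptgs2*, which encodes an inducible cyclooxygenase, rose from 11.5 ± 4.36 to 59.9 ± 20.8 CPM (2.38 on the log2 scale, SE 0.26, adjusted p = 1.73e-05), *Fosb* from 39.1 ± 10.3 to 72.0 ± 10.2 CPM (0.88) and *Fos* from 69.8 ± 0.998 to 100.6 ± 10.2 CPM (0.53). *Jun* (0.67) and *Nr4a1* (0.47), named after their values were seen, were the other 2. *Egr1* (−0.28, adjusted p = 0.0460) and *Egr3* (−0.42, adjusted p = 0.0495), also named after their values were seen, had lower means, and with the block 9 were called higher and 3 lower, against 6.50% and 9.02% of all genes. Without sh*Pla2g4e* replicate 3 the list had 6 higher and 2 lower, where that fit called 681 of all genes higher and 932 lower. The sh2 seed site was in the 3′ UTR of 4 of the 18, *Bdnf* (0.31), *Fosl2* (0.08), *Egr3* and *Npas4* (−0.41). None of these 4 was called in the unblocked fit, whereas the block called *Bdnf* higher (adjusted p = 2.49e-04) and *Egr3* (7.11e-07) and *Npas4* (1.25e-05) lower. For *Bdnf* the direction is opposite to the study's qRT-PCR, which found less of its mRNA in cultures given the sh*Pla2g4e* lentivirus. The reason for this difference was not tested.

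**Figure D4:**
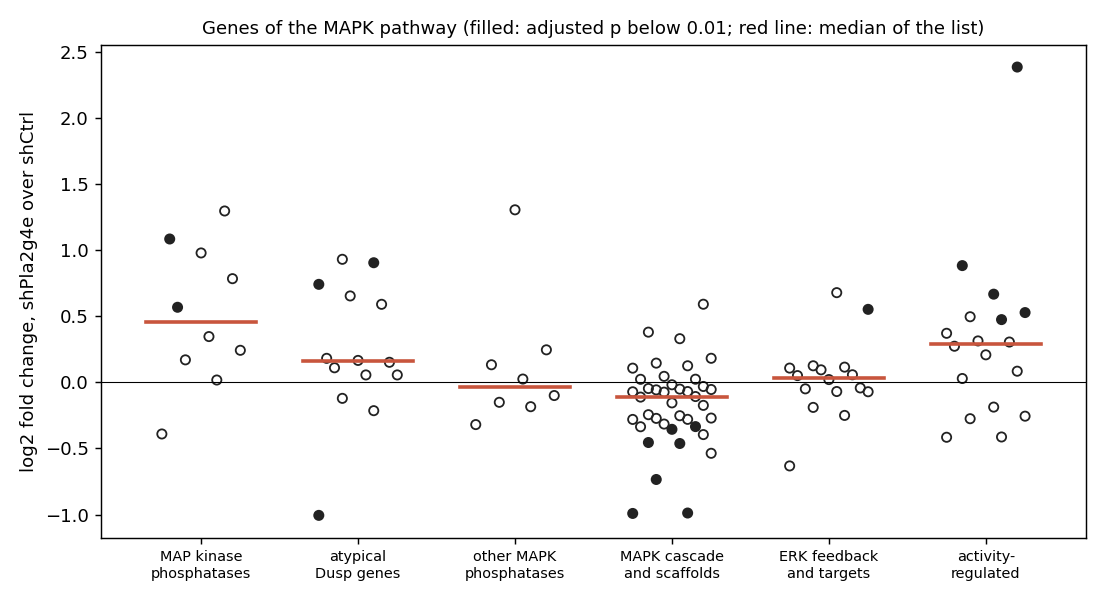
Log2 fold change of sh*Pla2g4e* over shCtrl for every tested gene of the 10 MAP kinase phosphatases and 5 lists of related genes, with filled points for an adjusted p below 0.01 in edgeR and a red line at each median. The medians are 0.46, 0.16, −0.04, −0.11, 0.04 and 0.29 from left to right, and the 7 filled points of the cascade list all lie below 0.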

How the data were processed

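The authors aligned reads with STAR (2.7.0d in the submitters' processing notes) and counted exonic reads per gene with featureCounts 1.6.0. They deposited raw counts per gene, 1 file per library, without normalization, with exon lengths in bases beside them. The file headers name GENCODE vM28, on GRCm39, whereas the methods name mm10, and show no option for strand or read pairs. Symbols came from GENCODE vM21 by gene identifier (52081 of 55357 genes). Genes were kept if any library held 6 reads or more, which is the filter of the study. The study tested them with limma after voom. Here they were fitted with edgeR 4.0.16 (TMM, estimateDisp, glmQLFit, glmQLFTest) in R 4.3.3, with Benjamini-Hochberg adjustment over 21876 genes and a threshold of 0.01. Standard errors were taken from the F statistic. Alternatives were limma 3.58.1 after voom, DESeq2 1.42.0, other scalings and filters, a looser threshold (0.05), the replicate as a block, and each library left out in turn. DESeq2 gave no adjusted p for *Dusp9*.

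Replicate numbers 1 to 3 stand in the titles of both groups. Same-numbered libraries deviated from their groups together (r = 0.392, 0.189 and 0.461 over 10908 genes whose log2 CPM averaged 3 or more), so that the numbers were taken as pairs from the labels and this check. Differently numbered libraries had r from −0.393 to 0.108, the highest for shCtrl replicate 1 with sh*Pla2g4e* replicate 2. With so few libraries the check cannot establish the pairing. No pair of libraries was a duplicate (chi-square per gene of at least 6.06). Of the 50-base stretches in a member's transcript, 20.5% recur in other genes for *Dusp5*, 0.189% for *Dusp8* and none for the other 8. The members and lists were chosen with earlier results of these data known. Named genes are all members, *Pla2g4e*, the 3 smallest adjusted p in each list of pathway genes and the 5 genes most like *Dusp1*, with cell type marker lists given as sums and counts. Any other gene was named after its values were seen, or, as *Tmem119*, *Itgam* the *Etv* genes and those with a seed site, to describe a list.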

Additional observations from a re-analysis of the deposited data

How the results depend on the processing

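*Dusp1* was called higher in each of the alternatives run, and no member changed direction except *Dusp4*, whose log2 fold change became −0.12 once shCtrl replicate 3 was left out and −0.07 once sh*Pla2g4e* replicate 1 was. The count of 10 members called was 2, and it was 4 in DESeq2, 6 with no filter, 6 with the replicate block, 6 at a threshold of 0.05 and 1 to 5 when a library was left out. The members gained were *Dusp2* (log2 fold change 1.30 with no filter and 1.25 with the block), *Dusp7* (−0.40 in DESeq2, −0.39 with no filter and −0.39 with the block), *Dusp8* (0.34 in DESeq2, 0.42 with library size alone, 0.35 with no filter and 0.35 with the block) and *Dusp10* (0.79 with no filter and 0.78 with the block). Leaving out a library gave 0.92 to 1.59 for *Dusp2*, −0.12 to 0.14 for *Dusp4*, 0.12 to 0.42 for *Dusp5*, 0.26 to 0.41 for *Dusp8*, 0.10 to 1.52 for *Dusp9*, 0.57 to 1.04 for *Dusp10* and 0.45 to 0.64 for *Dusp16*. Over all genes, 1419 calls became 1901 in DESeq2, 2349 with no filter, 3395 with the block, 2813 at 0.05 and 695 to 1613 without a library. The cascade list (7 called) had 4 with upper-quartile scaling, 4 with library size alone, 16 with the block, 14 at 0.05 and 3 to 7 without a library. The ERK feedback list (1 called) had 2 after limma and voom, 2 in DESeq2, 2 with library size alone, 2 with no filter, 3 with the block, 3 at 0.05 and 0 to 2 without a library. The activity-regulated list (5 called) had 8 with library size alone, 10 with no filter, 12 with the block, 10 at 0.05 and 4 to 8 without a library. The other phosphatases (none called) had 1 in DESeq2, with no filter, with the block and at 0.05, and 0 to 1 without a library. The cause of these shifts was not tested. The block changed no other call of a member or of *Pla2g4e*. *Dusp2* and *Dusp9* had few reads and also varied between the libraries of a group, with 70, 92 and 27 and with 13, 22 and 0 reads in sh*Pla2g4e*. With transcript length in place of exon length, added after seeing the data, the level per kilobase of *Dusp1*, *Dusp6* and *Dusp16* in shCtrl moved by more than 1 SD, and that of the other 7 members by less.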
